A study of Mus musculus with 6 samples.

Results

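miR-26a and miR-26b are brain microRNAs (miRNAs) made from introns of the Ctdsp phosphatase genes, and their mature strands were counted in whole brains of wild-type and Adar2-/- mice. The 5 entries described here were chosen by name, as every entry of the 3 deposited read tables that starts with miR-26a or miR-26b, and make up 5 of 1055 listed miRNAs. They are the guide strands miR-26a and miR-26b and the star strands miR-26a-1*, miR-26a-2* and miR-26b*. The family was selected with the level of its guides in these 6 libraries already known, so levels and genotype differences below are descriptions. Only miR-26a and miR-26b reached 100 reads in every library, the minimum for the test across miRNAs, and the 3 star strands did not.

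The libraries came from 3 wild-type and 3 Adar2-/- animals, female siblings of the 129SV strain aged 5.5 months. Adar2-/- animals lack ADAR2, an enzyme that deaminates adenosine to inosine in double-stranded RNA, in every cell from conception. All 6 animals, the wild-type controls included, were homozygous for Gria2 R/R, an allele that encodes the edited form of a glutamate receptor subunit and keeps Adar2-/- mice alive. Whole brain mixes many cell types, and each brain gave 1 small RNA library. Adar2 mRNA was not analysed here, so the genotype labels were not checked against the gene itself.

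A miRNA is cut from a hairpin transcript, and 1 of the 2 arms, the guide, is retained in the silencing complex while most copies of the other arm, the star, are degraded. The seed near the guide's 5′ end pairs with target mRNAs. The miR-26 hairpins lie in introns of Ctdspl, Ctdsp2 and Ctdsp1, which encode small phosphatases of the RNA polymerase II C-terminal domain. These phosphatases act with REST, the repressor of neuronal genes in non-neuronal cells, and miR-26 is known to target Ctdsp2, the host of 1 of its own hairpins. miR-26a is found in most tissues and is abundant in brain.

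The mature sequences show why the guides are 1 family and why the stars can tell the hairpins apart. The RefSeq table for GRCm38.p6 held all 5 entries. They are printed 5′ to 3′ with the seed, bases 2 to 8, in capitals.
miR-26a: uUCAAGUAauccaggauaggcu
miR-26b: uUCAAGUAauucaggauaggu
miR-26a-1*: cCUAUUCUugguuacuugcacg
miR-26a-2*: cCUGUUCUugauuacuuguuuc
miR-26b*: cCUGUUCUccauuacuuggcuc

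Both guides carry the seed UCAAGUA, which no other mature mouse miRNA in the RefSeq table has. Counted from 1 at the 5′ end and with the miR-26a base first, the guides differ by C11U and C21U, and miR-26a is 1 base longer (22 against 21 bases). The reads had been mapped with mismatches allowed, so some reads of one guide may have been assigned to the other, which was not tested. The hairpins Mir26a-1 and Mir26a-2 give the same guide sequence, and their guide reads cannot be told apart. Their stars differ at 6 positions, with A4G in the seed, so the star reads show which hairpin was cut. miR-26a-2* and miR-26b* share the seed CUGUUCU and differ at 4 positions, all outside the seed.

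Coordinates are given in NCBIM37, all on the plus strand, the strand of the host genes. Mir26a-1 lies at chr9:118940914-118941003 in intron 5 of the 7 introns of Ctdspl, an intron of 3283 bases, with the guide at chr9:118940929-118940950. Mir26a-2 lies at chr10:126432586-126432669 in intron 5 of the 7 introns of Ctdsp2, with the guide at chr10:126432599-126432620. In 1 shorter annotated Ctdsp2 transcript of 3 exons, an exon overlaps this hairpin. Mir26b lies at chr1:74440884-74440968 in intron 4 of the 6 introns of Ctdsp1, an intron of 564 bases, with the guide at chr1:74440898-74440918. The predicted folds had minimum free energies of -49.4 kcal/mol for Mir26a-1, -44.5 kcal/mol for Mir26a-2 and -43.5 kcal/mol for Mir26b.

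The libraries held 12449633 to 23935544 reads mapped to miRNAs, and levels are given as reads per 1000000 of that total (RPM), a relative scale on which the total amount of miRNA cannot be seen. miR-26a held 272342, 421179 and 436352 reads in wild-type brains 1, 2 and 3. It held 186804, 864034 and 1159711 reads in Adar2-/- brains 1, 2 and 3. At these depths the counting error of either guide was far smaller than the spread between Adar2-/- animals.

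The level of miR-26a was close to even in wild-type brains and uneven in Adar2-/- brains. How many of the tested miRNAs shared this was not counted, and other families with a wider Adar2-/- spread are given below. It was 21876, 18489 and 18590 RPM in wild-type brains 1, 2 and 3, and 10019, 36634 and 48451 RPM in Adar2-/- brains 1, 2 and 3. The lowest and the highest libraries were both Adar2-/-, with all 3 wild-type libraries between them, so the genotypes overlapped. The mean was 19652 ± 1926 RPM in wild-type (SD, n = 3) and 31702 ± 19686 RPM in Adar2-/- (SD, n = 3), a ratio of means of 1.61. By share, miR-26a was 1.85 to 2.19% of all miRNA reads in wild-type brains and 1.00, 3.66 and 4.85% in Adar2-/- brains 1, 2 and 3. Among all listed miRNAs it ranked between 9 and 14 in wild-type libraries and 17, 5 and 4 in Adar2-/- libraries 1, 2 and 3.

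miR-26b, the less abundant guide, had the same order of libraries at the extremes. It was 1990, 1688 and 1910 RPM in wild-type brains 1, 2 and 3, and 839, 3753 and 5820 RPM in Adar2-/- brains 1, 2 and 3. The genotypes again overlapped, and Adar2-/- brain 1 was again below every wild-type brain while Adar2-/- brains 2 and 3 were above them. The mean was 1863 ± 156 RPM in wild-type (SD, n = 3) and 3471 ± 2503 RPM in Adar2-/- (SD, n = 3), a ratio of means of 1.86. The highest library exceeded the lowest 6.94-fold for miR-26b and 4.84-fold for miR-26a. In whole brain, a lower level per cell and fewer cells that make a miRNA cannot be told apart.

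**Figure D1:**
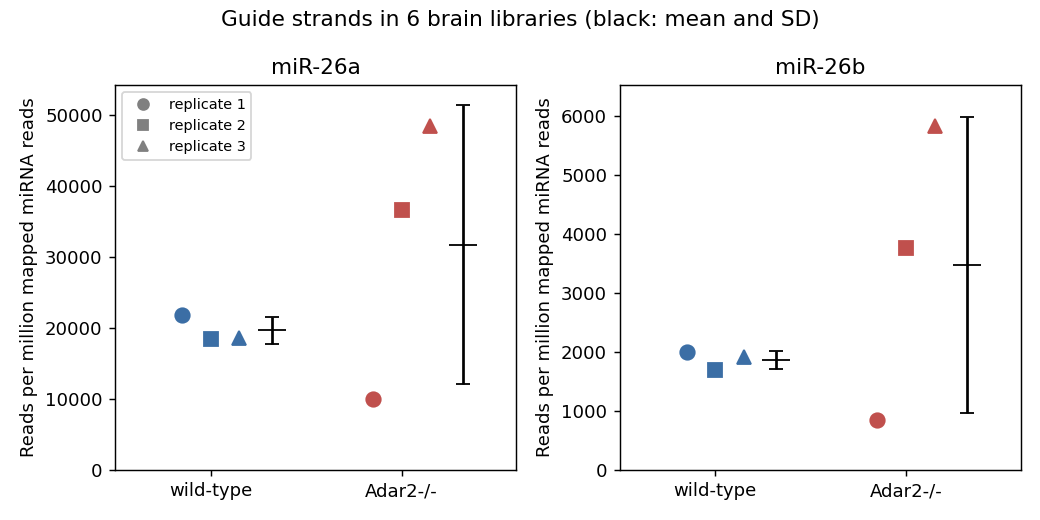
RPM of miR-26a (left) and miR-26b (right) in each library, with wild-type in blue, Adar2-/- in red, the marker shape giving the replicate number, and the black bars giving mean and SD of 3 libraries. For both guides the wild-type libraries lie close together, while Adar2-/- replicate 1 lies below them and Adar2-/- replicates 2 and 3 lie above them, up to 48451 RPM for miR-26a and 5820 RPM for miR-26b.

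Neither guide passed the test across miRNAs. edgeR's quasi-likelihood test over 399 miRNAs, with Benjamini-Hochberg adjustment over all of them, gave miR-26a a log2 fold change (Adar2-/- over wild-type) of 0.69 (SE 0.495, adjusted p = 0.988). The same edgeR fit gave miR-26b a log2 fold change of 0.90 (SE 0.561, adjusted p = 0.988). The background was 0% called, that is 0 of 399, with 13 miRNAs at an unadjusted p under 0.05, while DESeq2 called 1 (40 at an unadjusted p under 0.05) and it was neither guide. Ordered by log2 fold change from the highest, miR-26b stood 16th and miR-26a 31st of 399, around a median of 0.0023 over all tested. p-values cover the spread between these 6 libraries only.

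Leaving out Adar2-/- brain 1 or brain 3 moved these values by more than 1.5 times, and leaving out Adar2-/- brain 2 did not. Without Adar2-/- brain 1, the edgeR log2 fold change was 1.11 for miR-26a (adjusted p = 0.234) and 1.36 for miR-26b (adjusted p = 0.215). Without Adar2-/- brain 3, it was 0.25 for miR-26a and 0.30 for miR-26b (edgeR adjusted p = 0.995 for both). Without Adar2-/- brain 2, it was 0.57 for miR-26a and 0.84 for miR-26b. With replicate number 1 left out of both genotypes, edgeR called 18 of 399 miRNAs (4.51%), all higher in Adar2-/-, and miR-26b was among them with 1.41 (SE 0.329, adjusted p = 0.0476). miR-26a then had 1.20 (SE 0.295, edgeR adjusted p = 0.0506), just outside the threshold. The median over all tested miRNAs was 0.17 in that setting. It drops Adar2-/- brain 1, the only Adar2-/- brain with both guides below every wild-type brain, so these results depend on that choice. Without replicate number 2, the log2 fold change was 0.53 for miR-26a and 0.77 for miR-26b (edgeR adjusted p = 0.992 for both). Without replicate number 3, it was 0.21 and 0.32 (edgeR adjusted p = 0.997 for both), and either setting had 0 miRNAs called.

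**Figure D2:**
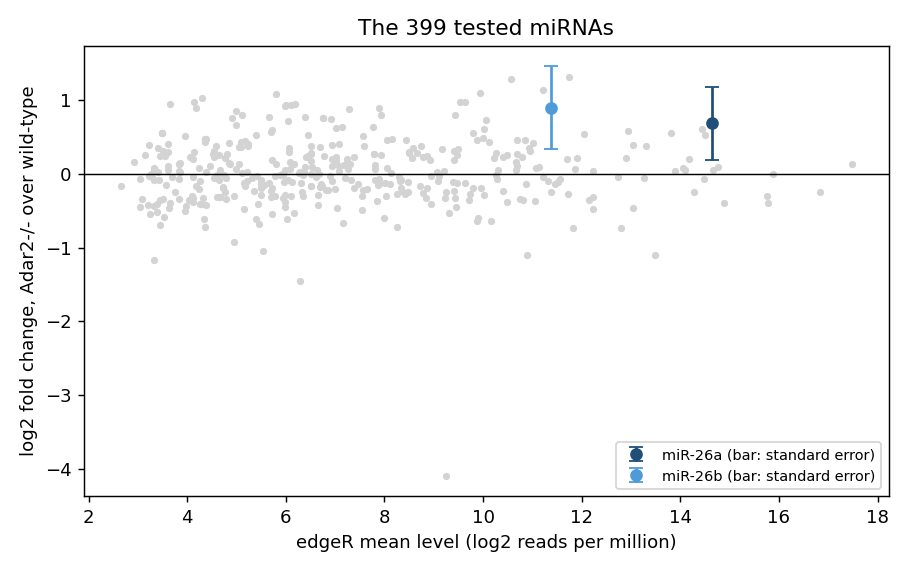
Log2 fold change, Adar2-/- over wild-type, against mean level (log2 RPM) from edgeR for each of the 399 tested miRNAs (grey), with miR-26a (0.69) and miR-26b (0.90) in blue and bars of 1 standard error. Both guides lie among the higher fold changes, and their bars stay above 0 while neither passes the adjusted threshold.

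Comparing libraries of the same replicate number, miR-26a in Adar2-/- was 0.458, 1.98 and 2.61 times its wild-type level in numbers 1, 2 and 3. For miR-26b these ratios were 0.422, 2.22 and 3.05. So both guides were lower in number 1 and higher in numbers 2 and 3, a pattern that 141 of 399 tested miRNAs shared (35.3%). That share was 24.1% with TMM factors, a scaling computed after trimming the most different miRNAs and both extremes of abundance. It was 25.1% with totals that omit the 5 most abundant miRNAs, and both guides kept the pattern under each scaling. Neither guide, 0 of 2, moved the same way in all 3 numbers, which 16.0% of tested miRNAs did, and neither had genotypes that did not overlap, which 5.76% did.

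Other library features ran with these levels. The 5 most abundant miRNAs of the series took 56.6, 43.5 and 36.8% of reads in Adar2-/- libraries 1, 2 and 3. In wild-type libraries they took 45.2 to 50.5%. Their share was thus highest where miR-26 was lowest and lowest where miR-26 was highest. By mean level in the edgeR fit, miR-183 and miR-182 were among these 5. With those 5 left out of the totals, the per-number ratios of miR-26a were 0.526, 1.73 and 2.26 and those of miR-26b 0.484, 1.95 and 2.65, so the direction in each number stayed. The genotype also went with a code in the column names whose meaning the labels do not give. It was s1 for wild-type and s2 for Adar2-/- in numbers 2 and 3, and s7 and s8 in number 1. A library's preparation and its animal cannot be told apart.

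Whole-brain content was read from marker miRNAs. The 4 neuronal markers (miR-124, miR-128, miR-137 and miR-138) summed to 22578, 38594 and 21717 RPM in wild-type brains 1, 2 and 3 and 22661, 33255 and 47487 RPM in Adar2-/- brains 1, 2 and 3. The 3 neuroendocrine markers (miR-375, miR-7a and miR-7b) summed to 7459, 1289 and 1911 RPM in wild-type and 1557, 3205 and 4714 RPM in Adar2-/-, in the same order. This sum need not stand for each member. The edgeR log2 fold change was -4.09 (SE 1.32) for miR-375, but 0.42 (SE 0.523) for miR-7a and 0.19 (SE 0.561) for miR-7b. Across the Adar2-/- brains both sums had the order of the miR-26 guides, lowest in brain 1 and highest in brain 3. The cluster of miR-182, miR-183 and miR-96, known from sensory organs and the pineal gland, summed to 113581, 155374 and 108156 RPM in wild-type brains 1, 2 and 3 and 186903, 89664 and 19158 RPM in Adar2-/- brains 1, 2 and 3. The 5 epithelial markers (miR-200a, miR-200b, miR-200c, miR-141 and miR-429) summed to 4783 to 6267 RPM in wild-type and 9210, 5141 and 738 RPM in Adar2-/- brains 1, 2 and 3. In the Adar2-/- brains the sensory and epithelial sums ran opposite to miR-26, and the part of any marker list in the miR-26 levels was not tested. Reads of miR-183 and miR-182 enter both the sensory sum and the share of the 5 most abundant miRNAs. The sensory sum and that share are therefore not separate observations. The remaining sums were 1175 to 1626 RPM for oligodendrocytes, 48138 to 75100 RPM for vessels, 420 to 1540 RPM for blood, 838 to 1622 RPM for choroid plexus and 2254 to 3390 RPM for muscle. The oligodendrocyte sum was 1338, 1343 and 1502 RPM in Adar2-/- brains 1, 2 and 3. It was nearly equal in brains 1 and 2, in which miR-26a was 10019 and 36634 RPM. Its members differed in sign of the edgeR log2 fold change: -0.19 for miR-219-3p, 0.20 for miR-219-5p and 0.28 for miR-338-3p. Vessels (58636, 52964 and 48138 RPM) and blood (1479, 1192 and 1063 RPM) ran opposite to miR-26 in these brains. Those 2 sums need not stand for each member either. For vessels the edgeR log2 fold change was -0.40 (SE 0.316) for miR-126-3p, 0.047 (SE 0.313) for miR-143 and 0.38 (SE 0.355) for miR-145. For blood it was 0.46 (SE 0.498) for miR-451 and 0.76 (SE 0.344) for miR-486. Choroid plexus, muscle and liver had neither the order of miR-26 nor the opposite one. The liver miRNA miR-122 was near 0, at 3.95 to 7.23 RPM.

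Within a library, depth and the total drop out of the ratio of the guides. miR-26a had 11.0, 11.0 and 9.73 times the reads of miR-26b in wild-type brains 1, 2 and 3, and 11.9, 9.76 and 8.32 times in Adar2-/- brains 1, 2 and 3. So the guides moved almost in step, and the ratio was lowest in the library in which both were highest. On the log2 scale the mean ratio was 3.40 ± 0.10 in wild-type and 3.31 ± 0.261 in Adar2-/- (SD, n = 3 each), a difference of -0.091 (two-sided exact permutation test, p = 0.7). With 3 against 3 libraries the smallest p this test can give is 0.1. The summed level of all 5 entries was 21519 ± 2045 RPM in wild-type and 35176 ± 22171 RPM in Adar2-/- (SD, n = 3 each; exact permutation p = 0.4).

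The star strands were rare. miR-26a-1*, from the Ctdspl intron, had 42, 16 and 31 reads in wild-type brains 1, 2 and 3 and 32, 17 and 7 reads in Adar2-/- brains 1, 2 and 3. miR-26a-2*, from the Ctdsp2 intron, had 19, 9 and 6 reads in wild-type and 15, 10 and 9 in Adar2-/-, in the same order. miR-26b*, from the Ctdsp1 intron, had 35, 21 and 30 reads in wild-type and 36, 42 and 56 in Adar2-/-. The highest wild-type value of all 3 stars was in brain 1, the shallowest library, and the genotypes overlapped in RPM for all 3 stars.

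In RPM, miR-26a-1* was 1.80 ± 1.40 in wild-type and 0.910 ± 0.730 in Adar2-/- (SD, n = 3 each). miR-26a-2* was 0.726 ± 0.697 RPM in wild-type and 0.535 ± 0.235 RPM in Adar2-/-, and miR-26b* was 1.67 ± 1.00 and 2.02 ± 0.289 RPM. Counting error was large: the 7 reads of miR-26a-1* in Adar2-/- brain 3 have a 95% exact Poisson interval of 2.81 to 14.4 reads, and the 56 reads of miR-26b* in the same brain one of 42.3 to 72.7 reads. Intervals cover counting error only, since reads carried no molecular identifiers.

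**Figure D3:**
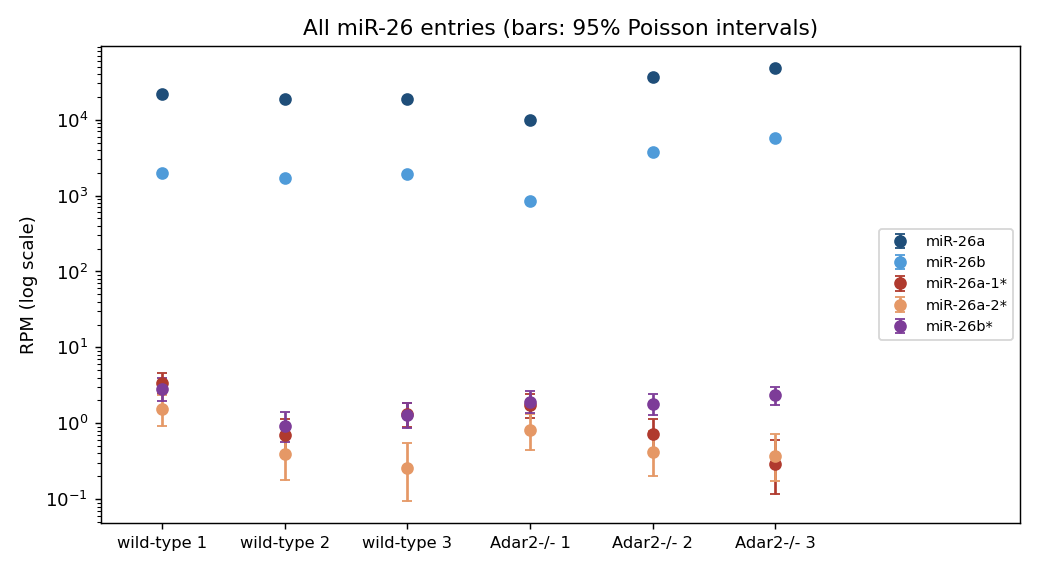
RPM (log scale) of the 5 miR-26 entries in the 6 libraries, with 95% exact Poisson intervals for counting error as bars. The 2 guides lie between 839 and 48451 RPM and the 3 stars below 4 RPM, and the rise of the guides in Adar2-/- libraries 2 and 3 is not seen in the stars of miR-26a.

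Strand choice was strongly one-sided for both miRNAs. Over all 6 libraries miR-26a had 213 star reads beside 3340422 guide reads, or 6.38 per 100000 guide reads, and miR-26b had 220 beside 351529, or 62.6 per 100000. Among 197 miRNAs with a listed star, these were the 10th and the 25th lowest shares, against a median of 1362 per 100000. Pooled reads weigh most on the libraries with most guide reads, and within single libraries miR-26a took places 11 to 16 in the wild-type brains and 7 to 20 in the Adar2-/- brains. miR-26b took places 26 to 33 and 25 to 53. miR-26b thus kept more star per guide than miR-26a in the pooled reads, and it did so in each library.

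The arm ratio did not separate the genotypes. miR-26a stars per 100000 guide reads were 22.4, 5.94 and 8.48 in wild-type brains 1, 2 and 3 and 25.2, 3.12 and 1.38 in Adar2-/- brains 1, 2 and 3. For miR-26b they were 141, 54.6 and 66.9 in wild-type and 230, 47.4 and 40.2 in Adar2-/-. In both genotypes brain 1 had the highest share for both miRNAs. The difference in mean log2 ratio, Adar2-/- minus wild-type, was -1.13 for miR-26a (two-sided exact permutation test, p = 0.5) and -0.078 for miR-26b (p = 0.9, same exact test).

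Among miR-26a star reads, those of the Ctdspl hairpin were the larger part in 5 of 6 libraries. miR-26a-1* was 68.9, 64.0 and 83.8% of miR-26a star reads in wild-type brains 1, 2 and 3 and 68.1, 63.0 and 43.8% in Adar2-/- brains 1, 2 and 3. The lowest share rests on 16 star reads, with a 95% Wilson interval of 23.1 to 66.8%. The intervals of wild-type brain 2 (44.5 to 79.8%) and Adar2-/- brain 2 (44.2 to 78.5%) also reached below an even split, so the larger part was beyond counting error in 3 libraries. Means were 72.2 ± 10.3% in wild-type and 58.3 ± 12.8% in Adar2-/- (SD, n = 3 each), a difference of -13.9 percentage points (two-sided exact permutation p = 0.2). Without Adar2-/- brain 3 the difference was -6.69 points. The share among stars need not equal the share among guides, which could not be measured.

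Other widely expressed families were set beside miR-26 within each library. The let-7 guides, which act as brakes on growth genes, were 0.736, 1.64 and 2.31 times their wild-type RPM in Adar2-/- numbers 1, 2 and 3. For the miR-29 guides, known to target extracellular matrix genes, the ratios were 0.792, 1.86 and 2.15. For miR-103 and miR-107, which also lie in introns of their hosts, the Pank genes, they were 0.439, 2.00 and 1.99. All 3 families were thus lower in number 1 and higher in numbers 2 and 3, a comparison that rests on setting libraries of the same number side by side. Against all wild-type brains, Adar2-/- brain 1 was the lowest of 6 for miR-103 and miR-107 (214 RPM), as for miR-26. For let-7 it stood at 29134 RPM, above wild-type brains 2 and 3 (28579 and 27711 RPM), and for miR-29 at 19117 RPM, above wild-type brain 2 (15524 RPM). The SD was larger in Adar2-/- than in wild-type for let-7 (17498 against 6632 RPM) and miR-29 (15028 against 4602 RPM). So it was for miR-103 and miR-107 (248 against 104 RPM). For other miRNAs it was smaller, such as miR-9 (6149 against 23136 RPM) and miR-132 (1734 against 9095 RPM).

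Relative to each of these families, the genotypes overlapped in the level of miR-26. The smallest p that the permutation test can give here is 0.1, so it could not show a smaller one. The log2 ratio of summed miR-26 guides to let-7 guides was -0.56 ± 0.155 in wild-type and -0.63 ± 0.690 in Adar2-/- (SD, n = 3 each), a difference of -0.071 (two-sided exact permutation test, p = 1). Against miR-103 and miR-107 the difference was 0.16 (exact permutation p = 0.5), and against the miR-29 guides it was -0.13 (exact permutation p = 0.9). In Adar2-/- brain 1 the log2 ratio was the lowest of the 6 against let-7 (-1.42) and against miR-29 (-0.82), but not against miR-103 and miR-107 (5.67, above wild-type brain 1 at 5.61). Without that library, the difference was 0.33 against let-7, 0.25 against miR-29 and 0.34 against miR-103 and miR-107. Against miR-103 and miR-107 it was 0.021 without wild-type brain 1 and 0.025 without Adar2-/- brain 3.

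**Figure D4:**
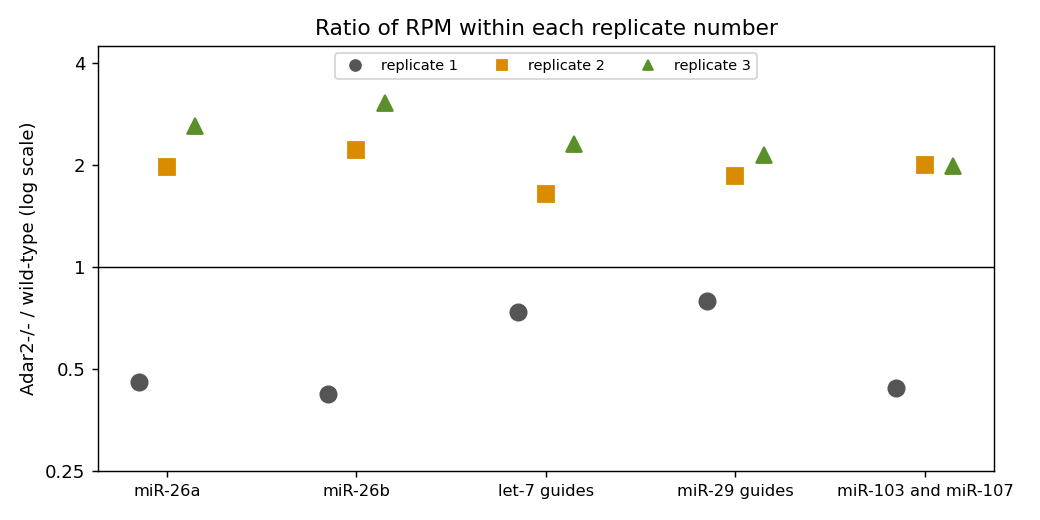
Ratio of RPM, Adar2-/- over wild-type, within each replicate number (log scale) for the miR-26 guides and 3 other widely expressed families. Every group shown lies below 1 in replicate number 1 and above 1 in numbers 2 and 3, with miR-26b spanning 0.422 to 3.05.

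The likeness of other miRNAs to miR-26 was measured as Pearson's r of log2 RPM over the 6 libraries, as a description: the points share libraries and depth, and Adar2-/- brains 1 and 3 are the extremes of both guides. miR-26a and miR-26b had r = 0.996 with each other. The most alike outside the family were miR-195 (0.990), miR-340-5p (0.986), miR-217 (0.976), miR-499 (0.972) and miR-421 (0.965) for miR-26a. The same 5 were the most alike for miR-26b, led by miR-340-5p (0.990) and miR-195 (0.987). Of 397 other tested miRNAs, 30 reached r = 0.9 or more with miR-26a and 28 with miR-26b, and the median r was 0.38 and 0.39.

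miR-195, a cell-cycle regulator of the miR-15 family, was 625, 652 and 590 RPM in wild-type brains 1, 2 and 3 and 286, 1622 and 2081 RPM in Adar2-/- brains 1, 2 and 3. miR-340-5p was 522, 530 and 558 RPM in wild-type and 288, 1214 and 1654 RPM in Adar2-/-. Both had the narrow wild-type range and the wide Adar2-/- range of miR-26, at lower levels than either guide. miR-217, miR-499 and miR-421 stayed between 14.8 and 130 RPM.

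**Figure D5:**
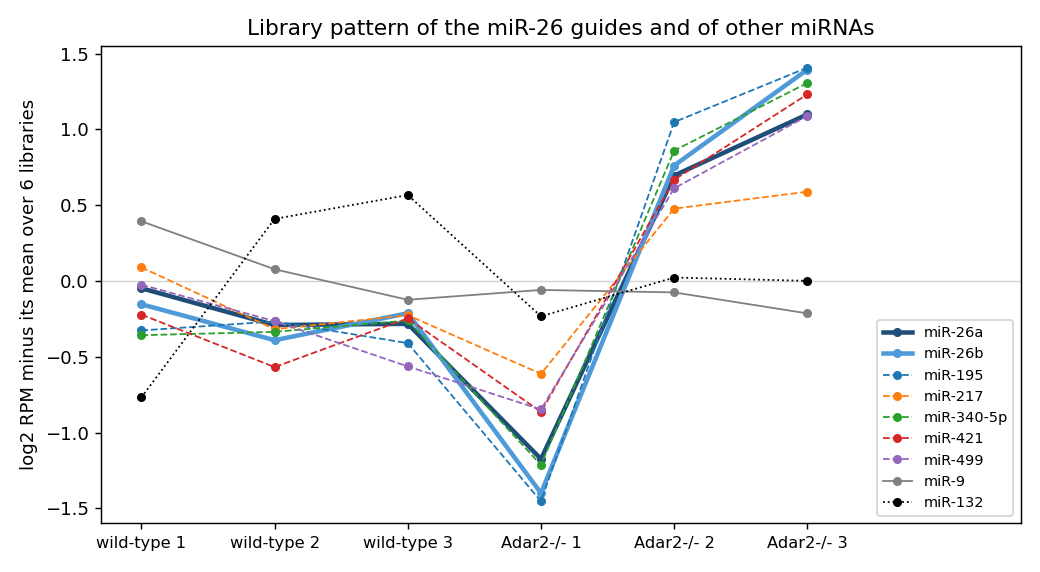
Log2 RPM minus its mean over the 6 libraries for miR-26a and miR-26b (thick lines), the 5 most alike miRNAs (dashed) and, for contrast, miR-9 and miR-132. The 7 alike miRNAs are lowest in Adar2-/- library 1 and highest in Adar2-/- library 3, while miR-9 and miR-132 do not follow them (r of -0.26 and 0.03 with miR-26a).

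None of the tested miRNAs tied to the REST and CTDSP circuit passed the edgeR test. The list was miR-9, miR-9*, miR-124, miR-132 and miR-212, the last counted as its 2 arms. miR-9 and miR-9* target REST and its cofactor CoREST, miR-124 targets Ctdsp1, and miR-132 and miR-212 are made from 1 transcript induced by neuronal activity and repressed by REST. Of these 6 entries 5 were tested and 0 were called by edgeR, which also called 0 of all 399 tested miRNAs. An unadjusted edgeR p under 0.05 was reached by 13 of the 399 and, in this list, by miR-9* alone (log2 fold change -1.10, SE 0.469, adjusted p = 0.988). Its level was 28362 RPM in wild-type brain 1 and 6359 to 10067 RPM in all others. Left out, that brain took its fitted difference to -0.34.

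miR-124, the neuron-specific miRNA, was 14405, 13519 and 7203 RPM in wild-type brains 1, 2 and 3 and 11198, 14998 and 25453 RPM in Adar2-/- brains 1, 2 and 3. It shared the high value in Adar2-/- brain 3 with miR-26, and its genotypes overlapped (edgeR log2 fold change 0.56, SE 0.409, adjusted p = 0.988). Without replicate number 3 its log2 fold change was -0.092. miR-212-3p had a log2 fold change of 0.57 (SE 0.451) and r = 0.93 with miR-26a, while miR-132 from the same transcript had -0.24 (SE 0.382) and r = 0.03. Without Adar2-/- brain 3, miR-212-3p had 0.019, and miR-132 ranged from -0.56 without wild-type brain 1 to -0.0031 without wild-type brain 3. miR-9, the most abundant of the list, had -0.25 (SE 0.302), with levels from 99104 RPM in Adar2-/- brain 3 to 151020 RPM in wild-type brain 1.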

How the data were processed

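Small RNA of 19 to 25 nucleotides from 6 whole brains was sequenced by the authors on an Illumina GAIIx instrument. The authors trimmed adapters with Cutadapt, mapped reads to mature miRNAs of miRBase with NextGenMap, discarded hits on the reverse strand and shared reads with several best hits among them. The deposited values are raw read counts per miRNA, in 3 tables of 1055 rows, each with 1 wild-type and 1 Adar2-/- column. The submitters' processing notes name mm9, the same assembly as NCBIM37. In all, 12 blank lines were dropped.

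RPM used the total of mapped miRNA reads. edgeR 4.0.16 (glmQLFit and glmQLFTest, R 4.3.3) was fitted to every miRNA that reached 100 reads in all 6 libraries, with genotype as the only term, that total as library size and no scaling factor. Adjusted p-values are Benjamini-Hochberg over all 399 tested miRNAs, with a threshold of 0.05, and the SE is the log2 fold change divided by the root of the F statistic. Fits were tested on simulated data first. For ratios and sums, exact permutation tests (two-sided, scipy 1.17.1) compared the genotypes. Intervals are 95% Poisson or Wilson. Hairpins were folded with ViennaRNA 2.7.2, loci were read from the GENCODE annotation of NCBIM37, and mature sequences came from RefSeq.

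Members were all entries named miR-26a or miR-26b, other named miRNAs were fixed lists and the 5 with the highest correlation to each guide. Members and lists were chosen with earlier results of these data known. Settings tried beside these were DESeq2 1.42.0, scaling by TMM, library totals that omit the 5 most abundant miRNAs, minimums of 10 reads or none, a replicate block and leaving out libraries. The authors describe the animals as siblings, and the labels give each library its own brain.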

Additional observations from a re-analysis of the deposited data

How the results depend on the processing

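The log2 fold changes of miR-26a and miR-26b stayed positive under all 16 alternatives, ranging from 0.21 to 1.20 and from 0.30 to 1.41 over those that left out libraries. The adjusted p passed the threshold only for miR-26b without replicate number 1 (1.41, adjusted p = 0.0476), a setting with 18 miRNAs called. That setting drops the Adar2-/- library in which both guides were lowest. Adjusted p ranged up to 0.998 for both guides. The count of called miRNAs was 0 to 18 when libraries were left out and 1 with DESeq2. TMM factors changed the count of miRNAs with 1 direction in every replicate number from 64 to 98 and those with separated genotypes from 23 to 43, and totals without the 5 most abundant miRNAs gave 89 and 36. With libraries left out in turn, the genotype difference changed sign for the log2 ratio of miR-26a to miR-26b (-0.23 to 0.034), the miR-26b arm ratio (-0.88 to 0.38), miR-26 against let-7 (-0.28 to 0.33) and against miR-29 (-0.40 to 0.25), and the log2 fold change of miR-124 (-0.092 to 0.96). The cause was not tested. The log2 ratio of miR-26 to miR-103 and miR-107 (0.021 to 0.34), the miR-26a arm ratio (-2.33 to -0.23), the hairpin split (-18.9 to -6.69 points) and the summed level (4108 to 25814 RPM) kept their sign. Over the tested miRNAs, libraries of the same replicate number did not deviate together (correlations of -0.001, -0.076 and -0.014). These correlations cannot show whether libraries of 1 number shared a run or a preparation. With a replicate block the edgeR log2 fold change was 0.45 for miR-26a and 0.55 for miR-26b, and 0 miRNAs were called (7 at an unadjusted p under 0.05 against 13 without the block). Star counts of 6 to 56 reads limit every arm ratio, and differences in them of the size of their counting error were not detectable at this depth.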

Other observations

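Of the 5 miRNAs most like miR-26a and miR-26b across the 6 libraries, 3 (miR-195, miR-340-5p and miR-421) were among the 18 miRNAs that edgeR called higher in Adar2-/- once replicate number 1 was left out of both genotypes, a setting in which 4.51% of the 399 tested miRNAs were called. These 4 libraries are also part of the 6 over which likeness was measured, and the 5 were picked by that likeness, so the overlap is not independent of it. The setting also removes Adar2-/- library 1, in which all 5 were lowest, so their calls cannot be read against the 4.51%.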
